A study of Mus musculus with 3 samples.

Results

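Genes of platelet integrins and *Itgb2*, a leukocyte integrin gene, were examined for FLI1 and RUNX1 binding in mouse megakaryocytes (MKs), the cells that shed platelets. They are 8 of the 22367 protein-coding genes of the GENCODE M1 annotation on the nuclear chromosomes of NCBIM37, the assembly also called mm9, and were chosen by name: *Itga2b*, *Itgb3*, *Itga2*, *Itgb1*, *Itga6*, *Itga5*, *Itgav* and *Itgb2*. The data are 3 ChIP-seq libraries of mature MKs: 1 made with an antibody to FLI1, 1 with an antibody to RUNX1, and 1 of input chromatin that was not precipitated. All 3 come from wild-type CD1 mice. Fetal liver cells were cultured for 5 days in thrombopoietin, freed of other lineages with antibodies to TER119, GR1 and CD11b, and enriched for large cells over a gradient of bovine serum albumin. The labels give embryonic day 15 and the methods an earlier day. The protocol in the labels, which covers several lineages, also names CD41, the product of *Itga2b* that MKs carry, among its depletion antibodies and does not say for which lineage. Depletion with it would remove MKs, and the methods do not name it for them. The FLI1 and RUNX1 libraries each pool the DNA of 3 or more precipitates, and the labels give pooled material for input too. There is thus 1 library of each kind and no replicate, the spread between preparations is hidden, and every interval given here covers counting error only. No test between conditions was made. The methods describe an input control from nuclease-digested chromatin for the histone mark and sonicated chromatin for the transcription factors, whereas the labels describe sonication only. A difference between ChIP and input can therefore not be told apart from a difference in fragmentation. Input reads were also 34 bp long, whereas FLI1 and RUNX1 reads were 50 bp long. A difference in where reads of these lengths can be placed uniquely can likewise not be told apart.

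Integrins are pairs of an α and a β chain that cross the cell membrane and tie the matrix or other cells to the actin skeleton. Platelets carry αIIbβ3, the fibrinogen receptor through which they aggregate, in far larger amounts than other integrins, together with receptors for collagen (α2β1), laminin (α6β1), fibronectin (α5β1) and vitronectin (αvβ3). FLI1 is an ETS-family factor and RUNX1 a Runt-domain factor, and loss of either impairs platelet production.

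The deposited files differed in depth. After mitochondrial reads and repeated input positions were left out, 62946422 FLI1, 3973856 RUNX1 and 21745220 input reads were counted, that is 15.8 FLI1 reads for each RUNX1 read. The deposited RUNX1 file holds only a small part of the tags that the study states for its RUNX1 library, whereas the FLI1 file holds most of those stated for FLI1. Low RUNX1 counts are therefore a property of this file, and binding that it does not show may be present in reads not analysed here. A bin of 400 bp held 13.5 FLI1 reads but 0.850 RUNX1 reads at the genome-wide mean, so that at this depth weak RUNX1 binding was not detectable and RUNX1 statements rest on small counts. For every 100 RUNX1 reads on the plus strand, 41.6 minus-strand ends lay 100 to 250 bp downstream, against 18.9 at 1000 to 1150 bp, a ratio of 2.20. The ratio was 1.54 for FLI1 (345.6 against 224.4) and 1.27 for input (97.2 against 76.7). Whether both ends of some RUNX1 fragments were read was not tested, and if so, reads of a bin are not all independent. The cell type was checked on marker genes. Of 10 MK markers, 5 had at least 2-fold FLI1 over input within 2 kb of the start, against 25.2% of all genes. *Pf4* was highest at 4.25, *Gp1ba* stood at 2.71, and those below 2-fold ran from *Vwf* at 1.24 to *Gp6* at 1.95. None of 7 erythroid and none of 7 lymphoid markers reached 2-fold, though these lists are small beside a share of 25.2%. Of 9 granulocyte and macrophage markers, *Mpo* alone did, at 2.44. At the starts, RUNX1 reached 2-fold at 1 of the 10 MK markers, *Gp9*, at 2.37, and at 0 of the erythroid, lymphoid, and granulocyte and macrophage markers. The share of all genes was 16.7%, so RUNX1 at the starts did not set the MK markers apart from genes in general. The median RUNX1 ratio was 1.48 for the MK markers and 1.58 for the erythroid markers. These are binding ratios, not RNA levels.

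FLI1 reached 2-fold over input at the starts of more of these integrin genes than RUNX1 did, as it did among all genes. The reads within 2 kb to either side of the gene start were divided by the input reads of the same window after scaling to library depth, so all windows have equal length. The ratio was at least 2 for FLI1 at 5 of the 8 genes, against 25.2% of the 21877 genes with an input read in the window. This number was 4 against the genome-wide FLI1 mean, 6 with FLI1 thinned to the RUNX1 depth and 7 in windows of 1 kb. The share of all genes was not computed under these alternatives, so the 25.2% does not apply to them. The ratio was at least 2 for RUNX1 at 3 of the 8, against 16.7% of all genes. The counting interval of the RUNX1 ratio included 2 at each of the 8 genes, so which of them pass is within counting error. The FLI1 interval included 2 at *Itgb3*, *Itga6* and *Itga5*. The median over the 8 genes was 3.22 for FLI1 and 1.74 for RUNX1, beside 1.26 and 1.17 over all genes. The 8 windows together held 2871 FLI1, 104 RUNX1 and 320 input reads.

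The order of the FLI1 ratios ran from *Itga2b* (5.50, 95% interval 4.06–7.64) through *Itgb1* (4.63, 3.15–7.06), *Itgb2* (4.22, 3.10–5.87), *Itgav* (3.86, 2.52–6.20), *Itgb3* (2.58, 1.94–3.50), *Itga6* (1.82, 1.25–2.71) and *Itga5* (1.72, 1.27–2.37) to *Itga2* (1.35, 0.956–1.94). Each interval overlapped that of its neighbour in this order. The interval of *Itga2b* did not overlap those of *Itgb3*, *Itga6*, *Itga5* or *Itga2*. The order changed where FLI1 was set against its own genome-wide mean in place of input, a choice made after the data were seen. *Itga2b* was then highest at 5.21 (4.83–5.61), followed by *Itgb2* at 3.99 (3.66–4.34), *Itgb3* at 3.00 (2.72–3.31), *Itgb1* at 2.79 (2.51–3.08), *Itgav* at 1.91 (1.68–2.16), *Itga5* at 1.89 (1.66–2.13), *Itga6* at 1.33 (1.14–1.54) and *Itga2* at 1.22 (1.04–1.42). On this scale *Itgb3* and *Itgb1*, *Itgav* and *Itga5*, and *Itga6* and *Itga2* were the neighbours whose intervals overlapped. Few input reads fell at the starts of *Itgb1* and *Itgav*, 0.602 and 0.494 of the genome-wide input mean, where the median gene had 0.838.

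**Figure D1:**
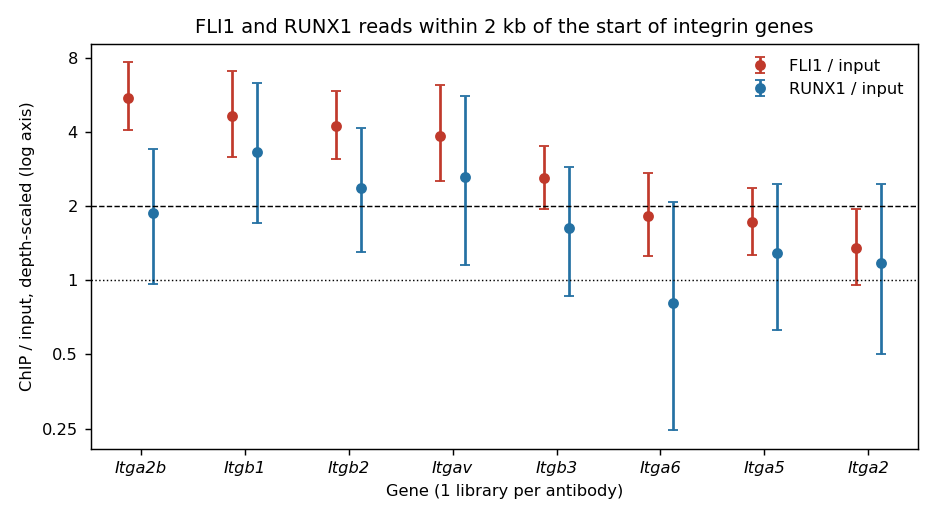
Depth-scaled ratio of FLI1 (red) and RUNX1 (blue) reads over input within 2 kb of the start of each gene, on a log axis, with exact 95% intervals for counting error and lines at 1 and 2. FLI1 falls from 5.50 at Itga2b to 1.35 at Itga2, and the RUNX1 intervals are wide because each window held 5 to 19 RUNX1 reads.

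**Figure D2:**
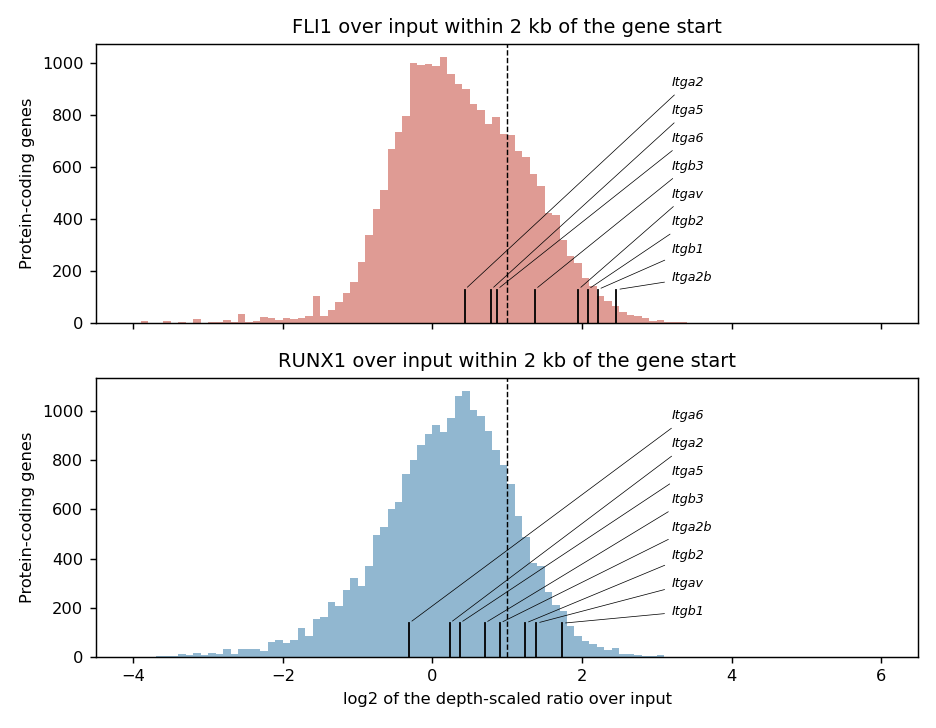
Histograms of the log2 ratio over input at the starts of 21877 protein-coding genes, FLI1 above and RUNX1 below, with the integrin genes marked, a dashed line at 2-fold and genes without a ChIP read not drawn. For FLI1, Itga2b lies at percentile 99.2 and Itga2 at percentile 54.0.

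The RUNX1 ratio at the start was highest at *Itgb1*, with 17 RUNX1 against 28 input reads and a ratio of 3.32 (1.71–6.29). *Itgav* had 11 against 23 reads and 2.62 (1.15–5.59), and *Itgb2* had 19 against 44 and 2.36 (1.30–4.13). For these 3 genes the interval lay above 1. It reached below 1 for the other 5, which ran from 1.87 (0.964–3.42) at *Itga2b* to 0.805 (0.246–2.07) at *Itga6*. All neighbouring intervals in the RUNX1 order overlapped. The number of genes at 2-fold or more went from 3 to 5 in windows of 1 kb and to 1 against the genome-wide RUNX1 mean, with no share of all genes computed for either. The order changed as well. Against that mean, a choice made after the data were seen, *Itgb2* was highest at 2.24 and *Itgb1* stood at 1.99995. *Itgb3* (1.88), *Itga2b* (1.76) and *Itga5* (1.41) then came before *Itgav* (1.29). In windows of 1 kb over input, *Itgav* was highest at 4.86, before *Itgb1* at 4.10.

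Over each gene body and 20 kb to either side, reads were also counted in bins of 400 bp against an expected number, the higher of the genome-wide mean and the scaled input of the surrounding 10 kb. A bin is called FLI1-rich at 4-fold or more, and RUNX1-rich at 5-fold or more with at least 6 reads. All 8 genes had a FLI1-rich bin, as did 55.7% of all genes, whose territories were shorter (median 55.6 kb, against 57.2 to 153.2 kb here). Of the 8, 5 had a RUNX1-rich bin, against 24% of all genes, and 2 of the 8 had one at a minimum of 8 reads. At that minimum the share of all genes was not computed. Of the 1996 bins of the 8 territories, 49 were FLI1-rich, or 2.45% (1.82–3.23, exact binomial), against 0.701% of the bins of all territories. RUNX1-rich bins numbered 14, or 0.701% (0.384–1.17), against 0.156%. The 49 FLI1-rich bins formed 38 separate sites once adjoining bins were merged. Bins are thus not independent, and the FLI1-rich share per territory ran from 0.977% at *Itgav* to 4.76% at *Itgb2*. The exact binomial intervals do not take this into account and are too narrow. Where territories of all genes overlap, their bins were counted once for each gene.

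FLI1-rich bins were found at the genes' own starts, inside the genes and outside them. Of the 49, 10 were within 2 kb of a protein-coding transcript start of the gene itself, 18 lay inside the gene farther from any start, 10 lay between genes, 8 lay within 2 kb of the start of another gene, and 3 inside another gene. A coding start here is the 5′ end of a protein-coding transcript, not the start of translation. Distances and windows given for a coding start use the one that most such transcripts share. Bins centred within 2 kb of any of the genes' own coding starts made up 113 of the 1996 bins (5.66%). Of these 113, 10 were FLI1-rich (8.85%), against 39 of the other 1883 (2.07%). The 14 RUNX1-rich bins comprised 2 near the gene's own start, 6 inside the gene, 3 between genes, 2 near the start of another gene and 1 inside another gene. These places were not counted for the rich bins of all genes. Whether the placement is particular to the 8 genes was therefore not tested. Over whole territories, the FLI1 ratio to input ran from 1.18 (1.12–1.26) at *Itga2* to 1.70 (1.60–1.81) at *Itgb3*, with all 8 intervals above 1. The RUNX1 ratio had an interval above 1 at *Itgb3* (1.62, 1.43–1.83), *Itgb1* (1.34, 1.13–1.58) and *Itga6* (1.20, 1.07–1.34), and stood between 0.872 and 1.10 at the other 5. The median territory of all genes had 0.974 for FLI1 and 0.939 for RUNX1. Binding near a neighbouring gene is counted here by position and is not assigned to the integrin gene.

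The DNA under the FLI1 summits was read from NCBIM37. An ETS match means GGAA preceded by CC or CA and followed by A or G, a RUNX match means TGTGGT or the same letters with GCG in place of GTG, a GATA match means GATAA preceded by A or T, and an NF-E2 match means TGAGTCA, on either strand. Where motifs adjoin they can share letters. An ETS match was present within 50 bp of the summit in 26 of the 49 FLI1-rich bins (53.1%), against 56.9% of the 33597 FLI1-rich bins of all territories and 6.74% of all 100-bp tiles of the genome. The RUNX motif was present in 11 (22.4%), against 15.6% and 7.54%. The GATA motif was present in 10 (20.4%), against 10.2% and 12.7%. The NF-E2 motif was present in 0 of the 49, against 3.53% and 1.52%. With 3 windows taken as the limit for a count of 0, this allows a share of up to 6.12%. The 0 holds for the summit windows only. Outside them, NF-E2 matches did lie in FLI1-rich 400-bp bins of *Itgb3*, *Itga2*, *Itga6*, *Itgav* and *Itgb2*. Adjoining bins can share a summit, so these windows are not all separate, and the share of ETS in the 8 territories was near that of FLI1-rich bins in general. At the starts, windows from 150 bp before to 49 bp after the coding start had a GC content of 53% at *Itgb2* to 75% at *Itga6* and *Itgav*, beside a median of 57.5% over all genes. In these windows *Itga2b*, *Itgb3* and *Itgb1* held an ETS match, 3 of the 8, against 24.3% of all genes, and 0 of the 8 held a RUNX or GATA match, against 15.1% and 10.5%. A match describes the letters only, and the lack of one says only that these letters are not in this window. In the sequences printed below the names of the genes, taken from the plus strand, capitals mark ETS and RUNX matches. The windows shown are those of the bins described in the text, and exonic windows are limited to 30 bases.

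*Itga2b* (ENSMUSG00000034664.7, chr11:102314611-102331436, minus strand, 16.8 kb) encodes αIIb (CD41), the α chain of the fibrinogen receptor and a classical marker of the MK lineage. Its start window held 701 FLI1, 15 RUNX1 and 44 input reads. FLI1 was concentrated there, since 80.7% of the FLI1 reads of the window fell within 500 bp of the start, against a median of 51.9% for genes with a ratio of at least 2. A pair of adjoining bins carried the signal. The record starts 239 bp upstream of the coding start, and distances here are from the record start. The bin centred 0.225 kb downstream of it, which is 0.014 kb upstream of the coding start, held 276 FLI1 reads (20.5-fold), 2 RUNX1 and 5 input reads, with its summit in the exonic 5′ UTR. The bin 0.175 kb upstream of the record start held 269 FLI1 reads (20.0-fold), 4 RUNX1 and 10 input reads. RUNX1 thus stood at 2.35-fold (0.285–8.50, exact Poisson) and 4.71-fold (1.28–12.05) in the same bins, both below the RUNX1-rich rule. Both summit windows held a GATA match and no RUNX match, and the window of the former bin alone held an ETS match. A RUNX match lay elsewhere in the latter bin.

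Itga2b, bin 0.225 kb downstream of the record start, chr11:102331084-102331113: agttcccaccaCCGGAAGtttcagcttatc
Itga2b, bin 0.175 kb upstream of the record start, chr11:102331458-102331557: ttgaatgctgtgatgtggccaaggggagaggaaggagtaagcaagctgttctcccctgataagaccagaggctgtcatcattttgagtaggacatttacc

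Over the whole *Itga2b* territory the median bin held 14 FLI1 reads, close to the genome-wide mean. Bins at +2.625 and +3.025 kb, inside the gene, held 50 and 40 FLI1 reads with 2 and 5 RUNX1 reads, below the FLI1-rich rule. The other 2 FLI1-rich bins, with 55 and 54 FLI1 reads at 4.08-fold and 4.01-fold, adjoined each other about 9 kb upstream over coding exons of the neighbouring gene *Gpatch8*. No bin of the territory was RUNX1-rich. The 57.2 kb held 2655 FLI1 and 126 RUNX1 reads, ratios over input of 1.42 (1.30–1.55) and 1.07 (0.876–1.30), and 24.6% of the FLI1 reads lay in the 4 rich bins.

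*Itgb3* (ENSMUSG00000020689.3, chr11:104469370-104531790, plus strand, 62.4 kb) encodes β3, the chain that αIIb and αv share. Its FLI1 pattern differed in place from that of *Itga2b*. The start window held 404 FLI1, 16 RUNX1 and 54 input reads, of which 37.1% of FLI1 reads lay within 500 bp of the start, and the bin at the start had 83 FLI1 reads (5.27-fold) and 4 RUNX1 reads. The larger signals lay outside the start. The richest bin of all 8 territories, 11.4 kb upstream between genes, held 315 FLI1 reads (21.1-fold), 6 RUNX1 reads (6.36-fold, 2.34–13.8) and 6 input reads. Toward the 5′ end of the gene, bins centred at +3.8, +6.2, +11 and +14.2 kb held 196, 121, 160 and 122 FLI1 reads, all intronic.

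The *Itgb3* territory also had the highest RUNX1 ratio and the most RUNX1-rich bins of the 8. The bin at +3.8 kb held 16 RUNX1 reads, 9 on the plus and 7 on the minus strand, or 15.2-fold (8.69–24.7). Of the territory's 6 RUNX1-rich bins, 5 were also FLI1-rich. The bins at +6.2 and +11 kb had 7 RUNX1 reads each, and a bin 8.2 kb upstream had 9 RUNX1 reads beside 60 FLI1 reads. The sixth, at +5.8 kb, held 11 RUNX1 reads (10.2-fold, 5.08–18.2) but 33 FLI1 reads (1.93-fold), and adjoins the bin at +6.2 kb. Only 30 genes, 0.134% of all, had 6 or more RUNX1-rich bins, and 100 genes (0.447%) had the 11 or more FLI1-rich bins found here. Over its 102.8 kb, the FLI1 ratio stood at percentile 99.4 of all territories and the RUNX1 ratio at percentile 98.7. A longer territory has more bins that can be rich, and 14 bins from +41.8 to +47 kb held no read of any library.

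The summit windows of *Itgb3* are shown for the distal bin with the most FLI1 and for 4 other RUNX1-rich bins. The distal upstream window held a pair of ETS matches and no RUNX match. The window at +3.8 kb, where RUNX1 was highest, held a RUNX match and no ETS match, that at +6.2 kb held both, and that at 8.2 kb upstream held a RUNX match. The window at +11 kb, with 7 RUNX1 reads in its bin, held neither an ETS nor a RUNX match but a GATA match. A RUNX match lay elsewhere in that 400-bp bin, over which the RUNX1 reads were counted.

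Itgb3, 11.4 kb upstream, chr11:104457873-104457972: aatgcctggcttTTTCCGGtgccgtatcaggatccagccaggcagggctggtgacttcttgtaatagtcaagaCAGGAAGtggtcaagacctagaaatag
Itgb3, 8.2 kb upstream, chr11:104461157-104461256: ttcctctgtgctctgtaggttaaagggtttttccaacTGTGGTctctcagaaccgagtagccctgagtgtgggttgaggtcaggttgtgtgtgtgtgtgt
Itgb3, 3.8 kb downstream, chr11:104473049-104473148: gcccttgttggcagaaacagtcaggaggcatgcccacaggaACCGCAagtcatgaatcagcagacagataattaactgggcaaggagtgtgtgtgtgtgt
Itgb3, 6.2 kb downstream, chr11:104475560-104475659: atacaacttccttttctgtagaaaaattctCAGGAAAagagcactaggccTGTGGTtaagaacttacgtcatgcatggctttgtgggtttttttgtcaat
Itgb3, 11 kb downstream, chr11:104480158-104480257: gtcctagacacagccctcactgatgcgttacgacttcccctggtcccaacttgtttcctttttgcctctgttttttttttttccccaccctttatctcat

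**Figure D3:**
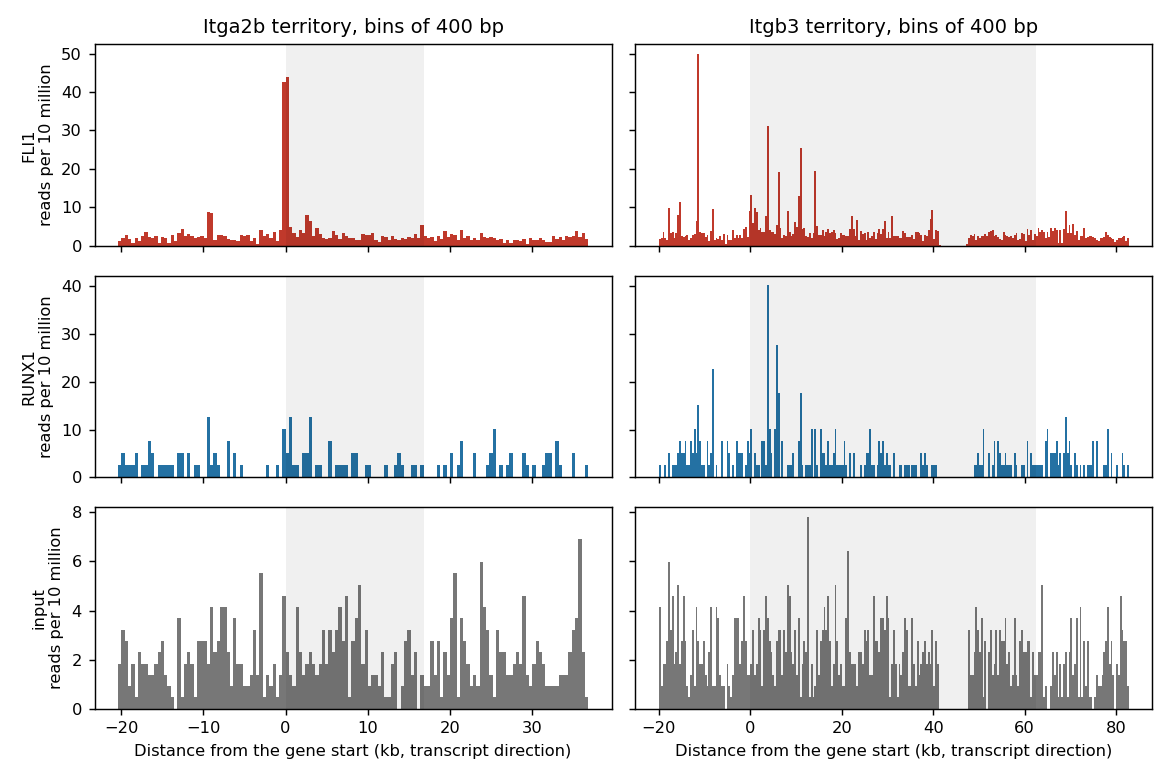
FLI1, RUNX1 and input reads, scaled to library depth, in 400-bp bins against the distance from the gene start in kb, in the direction of transcription, over the territories of Itga2b and Itgb3, with the gene body shaded. Itga2b shows a narrow FLI1 peak at the start and no RUNX1-rich bin, whereas Itgb3 has its highest FLI1 bin 11.4 kb upstream and its highest RUNX1 bin at 3.8 kb.

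*Itga2* (ENSMUSG00000015533.8, chr13:115626124-115722249, minus strand, 96.1 kb) encodes α2, which with β1 forms a collagen receptor of platelets. It had the lowest FLI1 ratio of the 8 at its start, where 164 FLI1, 9 RUNX1 and 42 input reads were counted. FLI1 was found in its introns instead. The bins centred at +15.9, +16.3 and +17.1 kb held 82, 80 and 98 FLI1 reads (6.09-fold, 5.94-fold and 7.28-fold), and 72 and 60 reads were found at +46.7 and +35.9 kb. RUNX1 reads were few in these bins. There were 5 at +17.1 kb, 1 at +16.3 kb and 0 in each of the other 3, whose exact Poisson interval reaches 3.69 reads or 4.34-fold, so moderate RUNX1 binding was not detectable there. The remaining FLI1-rich bin, with 59 reads, lay at the start of the neighbouring gene *Mocs2*. The window between +15.9 and +16.3 kb held both an ETS and a RUNX match, although its bins had 0 and 1 RUNX1 reads. The summit window of the richest bin, at +17.1 kb, held no ETS, RUNX, GATA or NF-E2 match. ETS matches lay elsewhere in that bin.

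Itga2, bin at 15.9 kb downstream, chr13:115706074-115706173: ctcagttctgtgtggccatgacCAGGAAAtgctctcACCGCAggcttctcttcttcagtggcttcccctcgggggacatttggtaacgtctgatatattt

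*Itgb1* (ENSMUSG00000025809.8, chr8:131209554-131257100, plus strand, 47.5 kb) encodes β1, the common partner of α2, α5 and α6. Its start window held 375 FLI1, 17 RUNX1 and 28 input reads. As at *Itga2b*, FLI1 was concentrated at the start, with 74.1% of the FLI1 reads of the window within 500 bp. The bin just upstream held 147 FLI1 and 6 RUNX1 reads (10.9-fold and 7.06-fold), and the bin just downstream held 120 and 3 (8.91-fold and 3.53-fold). The upstream bin met the RUNX1-rich rule exactly at its minimum, with 3 RUNX1 reads on each strand. The third FLI1-rich bin lay 5.8 kb upstream with 54 FLI1 and 0 RUNX1 reads. The summits of the bins beside the start lie at the start itself, and the window shown there holds an ETS match. In this territory 17 bins from +61 to +67.4 kb held no read of any library.

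Itgb1, gene start, chr8:131209544-131209573: ggaggaatgcgTTTCCGGagggagagaaaa

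*Itga6* (ENSMUSG00000027111.8, chr2:71583673-71696473, plus strand, 112.8 kb) encodes α6, the laminin receptor chain. Its annotated record starts 41324 bp upstream of its first protein-coding start, so both were examined. FLI1 over input was 1.82 at the record start and 1.64 (1.18–2.31) at the coding start, where 213 FLI1, 12 RUNX1 and 45 input reads lay. RUNX1 over input was 0.805 and 1.46 (0.703–2.80). The FLI1-rich bins were mostly intronic, with 6 of 9 inside the gene away from a start. The richest, 27.3 kb downstream of the coding start, held 173 FLI1 reads (12.3-fold) and 4 RUNX1 reads (4.52-fold, 1.23–11.6). Just upstream of the record start, at 0.6 kb, a bin held 78 FLI1 reads (5.79-fold) and 2 RUNX1 reads. Another bin, 6.6 kb from the record start and 34.7 kb upstream of the coding start, held 104 FLI1 and 7 RUNX1 reads (7.72-fold and 8.24-fold), though 6 of the 7 RUNX1 reads were on the plus strand. A further RUNX1-rich bin, 15 kb upstream of the record over an exon of *Gm1631*, had 7 RUNX1 but 20 FLI1 reads (1.03-fold). A FLI1-rich bin with 55 reads lay at the start of *Pdk1*. Both intronic windows held an ETS match.

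Itga6, 27.3 kb downstream of the coding start, chr2:71652233-71652332: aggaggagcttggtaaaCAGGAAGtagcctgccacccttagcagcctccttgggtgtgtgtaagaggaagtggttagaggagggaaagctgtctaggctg
Itga6, 34.7 kb upstream of the coding start, chr2:71590142-71590241: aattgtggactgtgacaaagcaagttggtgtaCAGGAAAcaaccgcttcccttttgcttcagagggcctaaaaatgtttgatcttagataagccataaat

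*Itga5* (ENSMUSG00000000555.6, chr15:103174720-103197194, minus strand, 22.5 kb) encodes α5, the fibronectin receptor chain. Its start window held 254 FLI1, 12 RUNX1 and 51 input reads, and no bin within 2 kb of its start was FLI1-rich. The strongest bin of its territory belonged by position to a neighbour. It lay in an intron of *Zfp385a*, 496 bp from a start of that gene by its summit, and held 277 FLI1 and 14 RUNX1 reads (18.7-fold, and 14.96-fold with an interval of 8.18–25.1). The bins on its sides held 127 FLI1 with 6 RUNX1 reads and 77 FLI1 with 4 RUNX1 reads. Inside *Itga5* the only FLI1-rich bin was intronic, 5.07 kb from the start, with 71 FLI1, 6 RUNX1 and 9 input reads (4.38-fold and 5.86-fold). Without bins near the starts of other genes, an alternative added after the data were seen, it is the FLI1-rich bin that is left at *Itga5*. The *Zfp385a* window held a RUNX match and the *Itga5* window a pair of ETS matches.

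Itga5, Zfp385a intron, chr15:103169969-103170068: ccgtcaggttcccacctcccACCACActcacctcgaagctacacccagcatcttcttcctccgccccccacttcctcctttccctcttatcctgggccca
Itga5, Itga5 intron, chr15:103191876-103191975: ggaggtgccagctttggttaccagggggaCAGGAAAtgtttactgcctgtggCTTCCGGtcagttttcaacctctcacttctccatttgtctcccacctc

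*Itgav* (ENSMUSG00000027087.5, chr2:83564554-83647073, plus strand, 82.5 kb) encodes αv, the vitronectin receptor chain that pairs with β3. Its start window held 257 FLI1, 11 RUNX1 and 23 input reads. The richest bin, just upstream of the start, held 71 FLI1 and 2 RUNX1 reads (5.27-fold and 2.35-fold). Bins 9.4 and 18.6 kb upstream held 66 and 60 FLI1 reads, with 2 and 0 RUNX1 reads. No bin was RUNX1-rich, and the highest RUNX1 count of any bin was 3. The FLI1-rich bins held 4.98% of the FLI1 reads of this territory, the smallest share among the 8. Neither an ETS nor a RUNX match was present within 50 bp of the summit at the start.

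*Itgb2* (ENSMUSG00000000290.7, chr10:76992997-77028453, plus strand, 35.5 kb) encodes β2, the chain of the leukocyte integrins, which pairs among others with the product of *Itgam*, CD11b, the antigen used for depletion. Its start window held 537 FLI1, 19 RUNX1 and 44 input reads. FLI1 spread over the first kilobases rather than at the start alone, as 35.4% of the window's FLI1 reads lay within 500 bp. The bin at the start held 159 FLI1 and 5 RUNX1 reads (11.8-fold and 5.88-fold), and the bins at +1.0, +1.4 and +1.8 kb held 107, 91 and 70 FLI1 reads. The bin at +1.0 kb was RUNX1-rich, with 6 RUNX1 reads (7.06-fold, 2.59–15.4). Similar FLI1 counts lay at the starts of the neighbours *Pttg1ip* (157 reads) and *1810008A18Rik* (150 reads), with 5 and 2 RUNX1 reads. A bin at +41 kb was RUNX1-rich with 6 RUNX1 and 11 FLI1 reads. The summit window of the bin at the start held an ETS match.

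Itgb2, gene start, chr10:76993062-76993091: ctgacttagaaCAGGAAGtgtcaggcgggg

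Residual granulocytes and macrophages also express *Itgb2*. The 9 markers of these cells had FLI1 ratios of 0.583 to 2.44 at their starts (median 1.53) and RUNX1 ratios of 0.122 to 1.88 (median 0.737), with *Ly6g* lowest and *Mpo* highest in both. Over their territories 7 of the 9 had a FLI1-rich bin and 0 a RUNX1-rich bin, beside 55.7% and 24% of all genes. Of the 10 MK markers, 10 and 7 had such bins, of the 7 erythroid markers 4 and 3, and of the 7 lymphoid markers 4 and 2. *Itgam* itself had a FLI1 ratio of 1.54. The part of such cells in the *Itgb2* result was not tested.

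**Figure D4:**
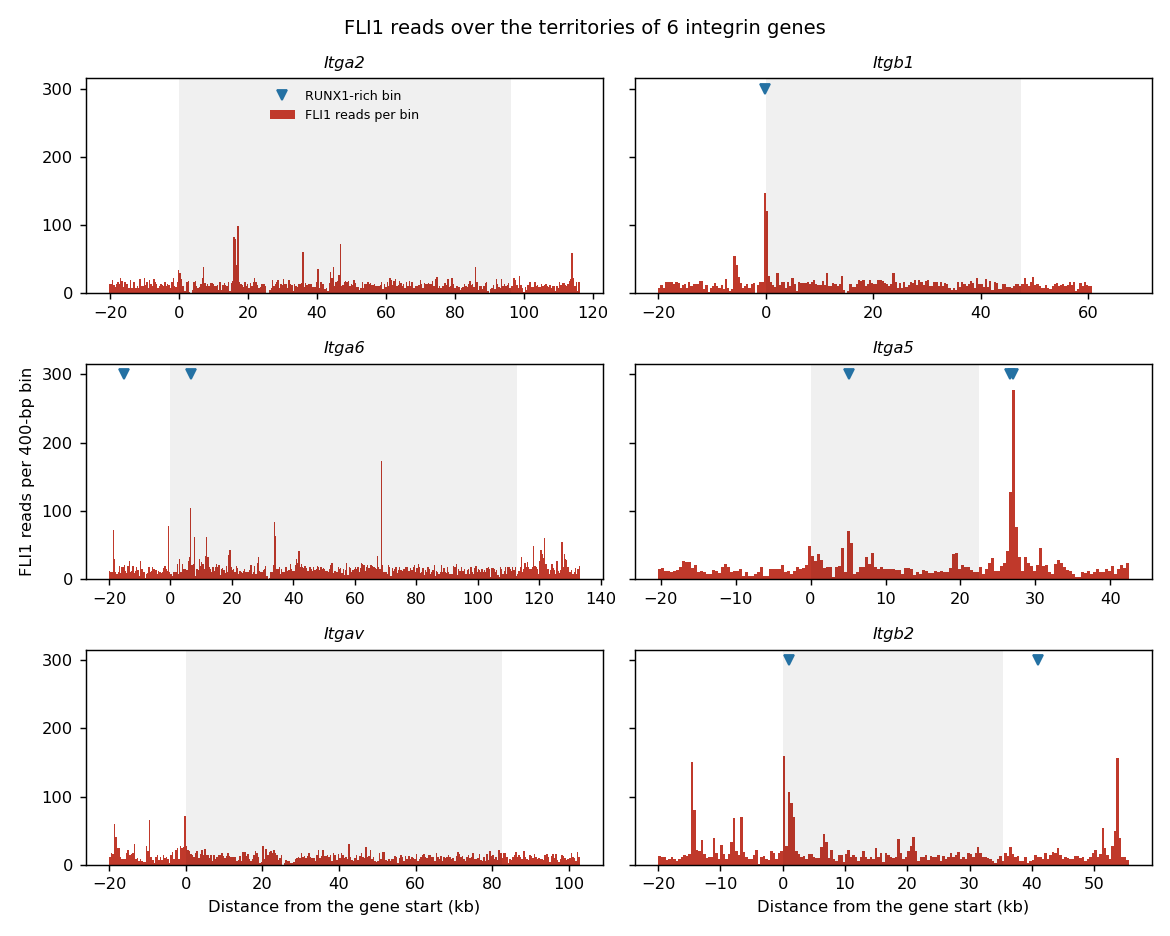
FLI1 reads per 400-bp bin against the distance from the gene start in kb over the territories of the 6 other integrin genes, with the gene body shaded and RUNX1-rich bins marked. The highest bins are at the start for Itgb1 (147 reads), Itgav (71) and Itgb2 (159) and away from it for Itga2 (98), Itga6 (173) and Itga5 (277, at the start of Zfp385a).

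RUNX1 reads were more numerous where FLI1 was rich. The 49 FLI1-rich bins of the 8 territories held 184 RUNX1 reads, 3.76 per bin, against 0.824 per bin in the other 1947. In all territories the same values were 2.48 and 0.673. Of the 49, 11 were RUNX1-rich, or 22.4% (11.8–36.6), against 7.73% of the FLI1-rich bins of all territories. Of the other bins of the 8 genes, 3 were RUNX1-rich (0.154%), against 0.102%. The 11 bins were unevenly spread, with 5 at *Itgb3*, 3 at *Itga5*, and 1 each at *Itgb1*, *Itga6* and *Itgb2*, and adjoining bins are not independent. Of the 3 in the *Itga5* territory, 2 lay within 2 kb of a start of *Zfp385a*. The single richest FLI1 bin was RUNX1-rich at *Itgb3*, *Itgb1* and *Itga5*, 3 of the 8, against 6.29% of all genes. For *Itga5* that bin is the one near the start of *Zfp385a*. Without bins near the starts of other genes the number was also 3. The 6.29% counts every gene, with or without a FLI1-rich bin. All 8 members had such a bin, against 55.7% of all genes, and their territories were longer than the median. The comparison is thus not like for like. The richest bin was not RUNX1-rich at *Itga2b*, whose start had the most FLI1. With 2 and 4 RUNX1 reads in the bins there, the deposited file does not show that RUNX1 was absent. With bins shifted by 200 bp, or at a minimum of 8 RUNX1 reads, the richest FLI1 bin was RUNX1-rich at 1 gene in place of 3.

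**Figure D5:**
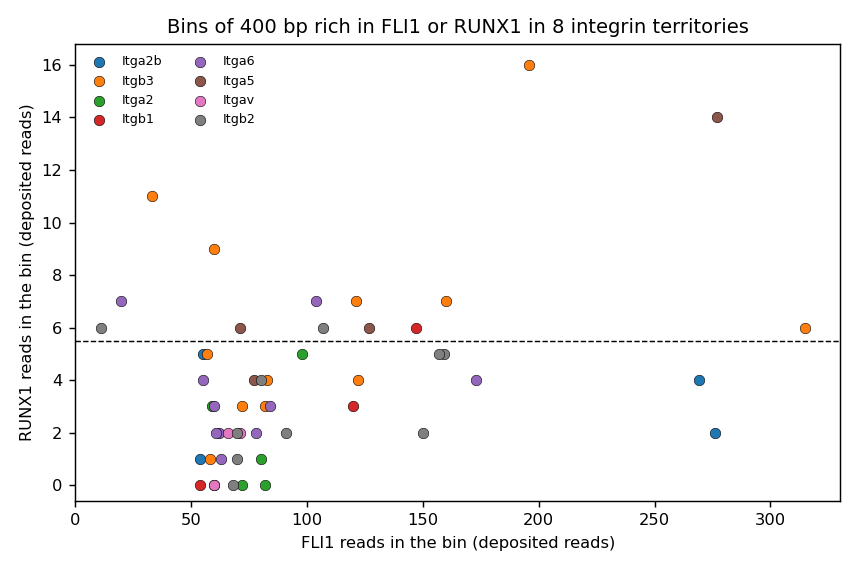
FLI1 against RUNX1 reads in each FLI1-rich or RUNX1-rich 400-bp bin of the 8 territories, coloured by gene, with a dashed line below the minimum of 6 RUNX1 reads. RUNX1 reads do not follow FLI1 reads alone: the Itgb3 bin with 196 FLI1 reads has 16 RUNX1 reads, and the Itga2b bin with 276 has 2.

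Genes that act with these integrins were described in the same way, from lists chosen with earlier results known. Over all genes with an input read, 25.2% had a FLI1 ratio and 16.7% a RUNX1 ratio of at least 2 at the start, with medians of 1.26 and 1.17. Of 21 genes for integrin activators and adhesion adaptors found in the annotation, 13 had such a FLI1 ratio and 6 such a RUNX1 ratio. Their medians were 2.42 and 1.72. The genes past 2-fold for FLI1 included *Zyx* (FLI1 8.18), *Vasp* (7.05), *Fermt3* (6.58), which encodes kindlin-3, an activator of β3, and *Tln1* (3.44), which encodes talin. The 19 other integrin subunits had medians of 0.867 and 0.931, and only *Itga4* (2.21) and *Itgal* (3.29) reached a FLI1 ratio of 2. Over their territories, however, 17 of these 19 genes had a FLI1-rich bin and 5 a RUNX1-rich bin, against 55.7% and 24% of all genes. A FLI1-rich bin somewhere in the territory was thus common among integrin genes outside the 8 as well, whereas the RUNX1 count was near the share of all genes. *Itgal* also had a RUNX1 ratio of 2.45. Of 11 integrin ligands, among them the fibrinogen chains and *Vwf*, 0 reached a ratio of 2 for either factor, with medians of 1.15 and 1.40.

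Likeness to the fibrinogen receptor genes was measured by the distance in log2 FLI1 and log2 RUNX1 ratios at the start, over the 2 ChIP libraries. The nearest to *Itga2b* were *Treml2* (distance 0.028), a gene of the TREM receptor family, *Scand1* (0.040) and *Pramef8* (0.058), with 9 genes within 0.1. The nearest to *Itgb3* were *Cyld* (0.011), *Mfsd2b* (0.014) and *Aldh16a1* (0.018), with 136 genes within 0.1. With so many genes that close and counting intervals far wider than these distances, the order of likeness is within counting error.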

How the data were processed

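The authors aligned the reads to mouse build mm9 by Bowtie (version not given in the sources used here) and kept uniquely mapped, non-redundant reads. The submitters' processing notes also name MACS 1.4 and SICER 1.1, whose calls were not used here. The deposited files hold 1 line per read, with chromosome, start, end and strand, and no counts or normalized values. Of deposited input reads, 3.24% repeated a position and were reduced to 1 per position and strand. Of 20000 reads of chromosome 1 compared with NCBIM37, 96.2% (FLI1) and 96.5% (RUNX1) had 2 or fewer mismatches.

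Reads were moved 75 bp in the 3′ direction, the middle of the 150-bp fragment given in the methods, and counted in windows of 2 kb to either side of the 5′ end of each gene record and in bins of 400 bp over the gene and 20 kb to either side. Ratios to input were scaled to depth, with exact (Clopper-Pearson) 95% intervals conditional on the sum of both counts. In all, 490 genes without an input read in the window had no ratio. The genome-wide mean used the effective mouse genome size of MACS. The analysis used Python 3.11.15, numpy 2.4.6, scipy 1.17.1, pandas 2.3.3, pysam 0.24.0 and matplotlib 3.10.9, and was tested on simulated data. Genes named are the 8 members, other genes with a start within 2 kb of a rich bin, the 3 genes nearest to *Itga2b* and to *Itgb3*, and genes of the lists. *Gpatch8*, *Gm1631* and the marker examples were named after their values were seen. Members and lists were chosen with earlier results of these data known. *Syk* was not found in the annotation. Alternatives were other shifts, scalings, windows, bins, thresholds and depths.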

Additional observations from a re-analysis of the deposited data

How the results depend on the processing

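No paired analysis was possible because each antibody has 1 library and no replicate is numbered. The RUNX1 ratio of *Itga6* crossed 1, from 0.805 at the record start to 1.37 in windows of 1 kb and 1.46 at the coding start. No other ratio at a start crossed 1. Of the values recomputed, 64 summary values and 107 values of single genes moved by less than counting error or, for counts, by at most 1.5 times. Alternatives were computed for the 8 genes only, so no share of all genes stands beside their values. The alternatives that moved values were these. With windows of 1 kb, the pooled FLI1 ratio at the starts was 4.57 in place of 3.10, the pooled RUNX1 ratio was 2.53 in place of 1.78, 5 genes in place of 3 reached a RUNX1 ratio of 2, and the FLI1 ratios of *Itga2b*, *Itgb1* and *Itgav* were 8.84, 7.13 and 6.53. With the genome-wide mean in place of input, a choice made after the data were seen, the pooled FLI1 ratio was 2.67, *Itgb1* stood at 2.79, *Itgav* fell below 2 at 1.91, and 1 gene reached a RUNX1 ratio of 2. FLI1-rich bins numbered 49 in the analysis reported, 78 with FLI1 thinned to the RUNX1 depth, 31 with FLI1 thinned and called by the RUNX1 rule (chosen after the data were seen), 13 at 8-fold and 97 with bins of 200 bp. RUNX1-rich bins numbered 14, against 27 from the plus strand alone with a minimum of 3 reads, 4 at a minimum of 8 reads and 6 with 200-bp bins. Genes with a RUNX1-rich bin went from 5 to 2 at 8 reads and 3 with 200-bp bins. The richest FLI1 bin was RUNX1-rich at 3 genes, but at 1 with 8 reads, with 200-bp bins or with bins shifted by 200 bp. Most RUNX1-rich bins rest on 6 to 11 reads of the deposited file. Leaving out a replicate was not possible.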
